A study of Oryza sativa with 10 samples.

Results

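The regions described here carried an H3K27me3 peak in the inbred rice varieties 93-11 and TQ and none in the variety GL. They were chosen by the H3K27me3 calls of the parents, by pooling the H3K27me3 peak lists of 5 genotypes, merging intervals that shared 1 bp or more, and keeping merged regions with peaks of both 93-11 and TQ and no peak of GL. This gave 995 regions of 13647 (7.29%). They were 389 to 7095 bp long with a median of 2110 bp, and covered 2.27 Mb in all. Since those calls set the choice, the presence of the mark in 93-11 and TQ and its lack in GL are not results.

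GL (Guangluai-4), 93-11 (Yangdao-6) and TQ (Teqing) are indica varieties, and the hybrids GL×93-11 and GL×TQ are their F1 plants. Chromatin came from second fully expanded leaves, and leaves of 3 plots were pooled, so every genotype has 1 library for each mark and no replicate. For this reason no test between genotypes could be made, and each interval given here covers counting error only. In both hybrids, 1 of the 2 parents of the cross had the mark at these regions, which makes them places where presence and amount of the mark can be followed in heterozygous plants.

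H3K27me3 is trimethylation of lysine 27 of histone H3, which Polycomb repressive complex 2 sets on repressed genes, and in plants the mark is kept through cell division by this complex. It often covers developmental and silenced genes in leaves. H3K36me3, the other mark of the study, is found along transcribed genes, mainly within the gene body, so both marks usually occupy different genes. An F1 hybrid has 1 chromosome set of each parent in every nucleus, and chromatin of both sets is precipitated together.

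The H3K27me3 lists held 8385 to 9639 peaks with 3378454 to 4634144 tags, 8.53% to 11.0% of the unique mapped reads of a library. Peaks were called by MACS in each library on its own, and the score of a peak is taken as the negative log10 of its p-value times 10, with a lowest score of 50. The level of a region is its number of tags per kb of peak per 1000000 unique mapped reads of the library. A region without a peak has no level in the lists, and a mark that is missing cannot be told apart from a mark below the calling limit. Reads of all 5 indica genotypes had been mapped to Nipponbare, a japonica variety, and whether the DNA of a region is present in GL was not tested. No gene annotation of the coordinates was used, so regions are named by chromosome and position as in the lists.

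The mark was called in GL×93-11 at 581 of the 995 regions (58.4%, 95% Wilson interval 55.3% to 61.4%), and in GL×TQ at 647 (65.0%, 62.0% to 67.9%). Over all 13106 merged regions with a peak in 1 or more parents, 61.5% had a peak in GL×93-11 and 63.2% in GL×TQ, so the share at the 995 regions was near the background in both hybrids. Where all 3 parents had the mark the shares were much higher, 94.7% and 96.4% of 5338 regions. Both hybrids had a peak at 474 of the 995 regions (47.6%, 44.6% to 50.7%), GL×93-11 alone at 107 (10.8%), GL×TQ alone at 173 (17.4%) and neither at 241 (24.2%, 21.7% to 27.0%). At regions of all 3 parents, 92.3% had a peak in both hybrids and 1.18% in neither. The hybrid lists took part in the merging. When only the parental lists were merged, 999 regions were found, with peaks in GL×93-11 at 58.4% and in GL×TQ at 65.1%.

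The outcome in the hybrids followed the strength of the parental peak. With the highest score of 93-11 in a region under 100, GL×93-11 had a peak at 42.7% of 424 regions (38.1% to 47.4%). From 100 to under 200 the share was 65.4% of 387 regions (60.5% to 69.9%), and at 200 or more it was 79.9% of 184 regions (73.5% to 85.0%). The intervals of these 3 classes did not overlap. For GL×TQ and the score of TQ, the shares were 60.2% of 576 regions (56.2% to 64.2%), 69.0% of 271 (63.3% to 74.2%) and 76.4% of 148 (68.9% to 82.5%), a flatter rise in which neighbouring classes overlapped in their intervals.

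**Figure D1:**
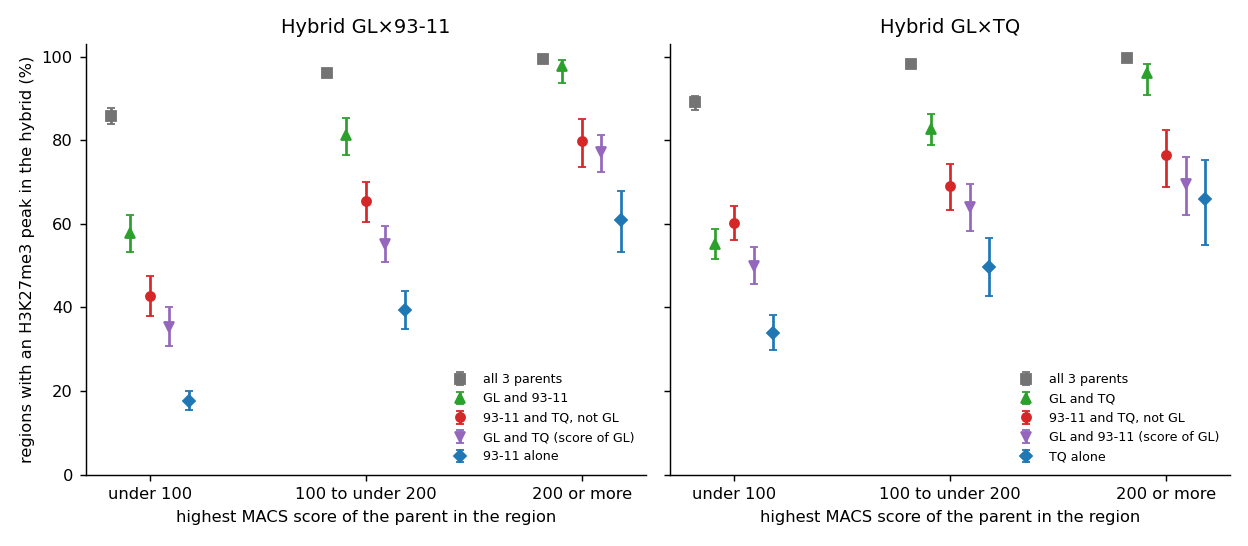
Share of merged regions with an H3K27me3 peak in GL×93-11 (left) and GL×TQ (right), in percent, by the highest MACS score of the parent and by which parents had a peak. Bars are 95% Wilson intervals of counting error. The regions of 93-11 and TQ (red circles) lie between regions of 1 parent alone (blue) and regions of all 3 parents (grey) in each score class, and at 200 or more they reach 79.9% and 76.4%.

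Regions marked in 93-11 alone, or in TQ alone, also had 1 parent of the cross with the mark, but no mark in the remaining varieties. At matched scores the hybrids had a peak less often there. In GL×93-11 the shares at regions of 93-11 alone were 17.7% (15.5% to 20.0%), 39.3% (34.9% to 43.9%) and 60.8% (53.3% to 67.8%) from the lowest to the highest score class, and each interval lay below that of the regions shared with TQ. In GL×TQ the shares at regions of TQ alone were 33.9% (29.8% to 38.2%), 49.7% (42.8% to 56.7%) and 65.8% (54.8% to 75.3%), and the intervals overlapped only in the highest class. The 995 regions had to be called in 2 parental lists and those of a single variety in 1, and the part of this in the difference was not tested.

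The reverse case is a region where GL brought the mark into the cross and the other parent had none. In GL×93-11, regions of GL and TQ had a peak at 35.3% (30.7% to 40.2%), 55.3% (51.0% to 59.6%) and 77.1% (72.5% to 81.2%) over the same classes of the GL score. In GL×TQ, regions of GL and 93-11 had a peak at 50% (45.6% to 54.4%), 64.0% (58.2% to 69.4%) and 69.5% (62.1% to 75.9%). At scores of 200 or more these shares lay within the intervals of the 995 regions in both hybrids. By contrast, where both parents of a cross had the mark and the third variety had none, the shares at 200 or more were 97.8% in GL×93-11 (93.7% to 99.2%) and 96.0% in GL×TQ (90.9% to 98.3%). These intervals lay above those of the regions with 1 marked parent.

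Both hybrids tended to have or lack the peak at the same regions. GL×93-11 had a peak at 73.3% of the 647 regions called in GL×TQ, and at 30.7% of the 348 not called there. Regions of all 3 parents went in the same direction. There GL×93-11 had a peak at 4928 of the 5146 regions called in GL×TQ and at 129 of the 192 not called. Both shares depend on peak strength, but the pattern was also present among the 102 regions with a score of 200 or more in both parents, where GL×93-11 had a peak at 92.3% of the 78 regions called in GL×TQ and at 33.3% of the 24 others. The hybrids have GL as a common parent, and the libraries are separate.

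Of these 102 strong regions, 72 (70.6%, 61.1% to 78.6%) had a peak in both hybrids, 8 in GL×93-11 alone, 6 in GL×TQ alone and 16 (15.7%, 9.89% to 24.0%) in neither. The parental values of the 16 were like those of the 72. Median fold enrichment was 4.17 in 93-11 and 3.81 in TQ at the 16 regions, and 4.06 and 4.03 at the 72. Median levels were 5.28 and 5.57 at the 16 regions, and 5.29 and 5.64 at the 72. Among the strongest regions, those called in both hybrids and those called in neither thus had parental peaks of similar median size. Of the 16 regions with a score of 400 or more in both parents, 14 had a peak in both hybrids and 2 in neither.

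Distance to the nearest GL peak ranged from 3 to 194573 bp with a median of 10236 bp, and 78 of the 995 regions (7.84%) lay under 1 kb from one. Those 78 had a peak in GL×93-11 at 64.1% (53.0% to 73.9%) and in GL×TQ at 73.1% (62.3% to 81.7%). The 504 regions 10 kb or more from a GL peak had one at 55.8% (51.4% to 60.03%) and 62.7% (58.4% to 66.8%). The share was lower far from GL peaks in both hybrids, with overlapping intervals. In the hybrids, the highest peak had its summit a median of 72 bp from that of the 93-11 or TQ parent in both crosses, and within 200 bp at 70.6% of regions in GL×93-11 and 74.2% in GL×TQ. At regions of all 3 parents these shares were near, 72.5% and 76.9%, and the merging itself joins peaks that overlap.

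The strongest region with a peak in both hybrids lay on chromosome 7 from 4791704 to 4793635, 3165 bp from the nearest GL peak. It held 780 tags in 93-11 (95% Poisson interval 726 to 837) and 730 in TQ (678 to 785), against 498 in GL×93-11 (455 to 544) and 565 in GL×TQ (519 to 614). The levels were 10.3, 10.8, 6.14 and 7.96 in the same order. Both parents were thus above both hybrids, with a ratio of hybrid to parent in GL×93-11 of 0.594 (0.529 to 0.665) and in GL×TQ of 0.734 (0.657 to 0.821).

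The next 4 regions of this outcome showed the same order in each cross. On chromosome 11 from 27580191 to 27581511, the level was 6.01 in 93-11 and 7.53 in TQ, against 4.75 in GL×93-11 and 5.54 in GL×TQ. On chromosome 4 from 14364177 to 14365849, it was 6.0 in 93-11 and 7.56 in TQ, against 3.69 in GL×93-11 and 4.48 in GL×TQ. This region had the lowest ratio of the 5 in GL×TQ, 0.593 (0.510 to 0.688), and 0.616 (0.517 to 0.731) in GL×93-11. On chromosome 4 from 13272030 to 13273764, the level was 5.94 in 93-11 and 5.95 in TQ, against 4.48 in GL×93-11 and 3.98 in GL×TQ. The remaining region, on chromosome 4 from 7907005 to 7909302, had levels of 6.64, 8.14, 5.07 and 5.32 in that order. In all 5 regions and both crosses, the interval of the ratio of levels lay below 1. These regions were taken for their high parental scores, and fold enrichment did not follow the level at each of them.

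At the region of chromosome 7, fold enrichment was 4.21 in 93-11 and 4.23 in TQ, against 4.17 in GL×93-11 and 4.04 in GL×TQ. At the region of chromosome 4 from 7907005, it was 4.46 in 93-11 and 4.30 in TQ, against 4.66 in GL×93-11 and 4.81 in GL×TQ. At that from 14364177, it was 5.17 in 93-11 and 3.83 in GL×93-11, but 5.05 in TQ and 5.10 in GL×TQ. Fold enrichment was thus higher than in the parent in both hybrids at 1 of these regions and in GL×TQ at another. At the region of chromosome 11 it was 8.66 in 93-11 and 7.69 in TQ, against 5.72 in GL×93-11 and 7.39 in GL×TQ. At that of chromosome 4 from 13272030, it was 7.07 in 93-11 and 7.24 in TQ, against 5.80 in GL×93-11 and 5.69 in GL×TQ.

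**Figure D2:**
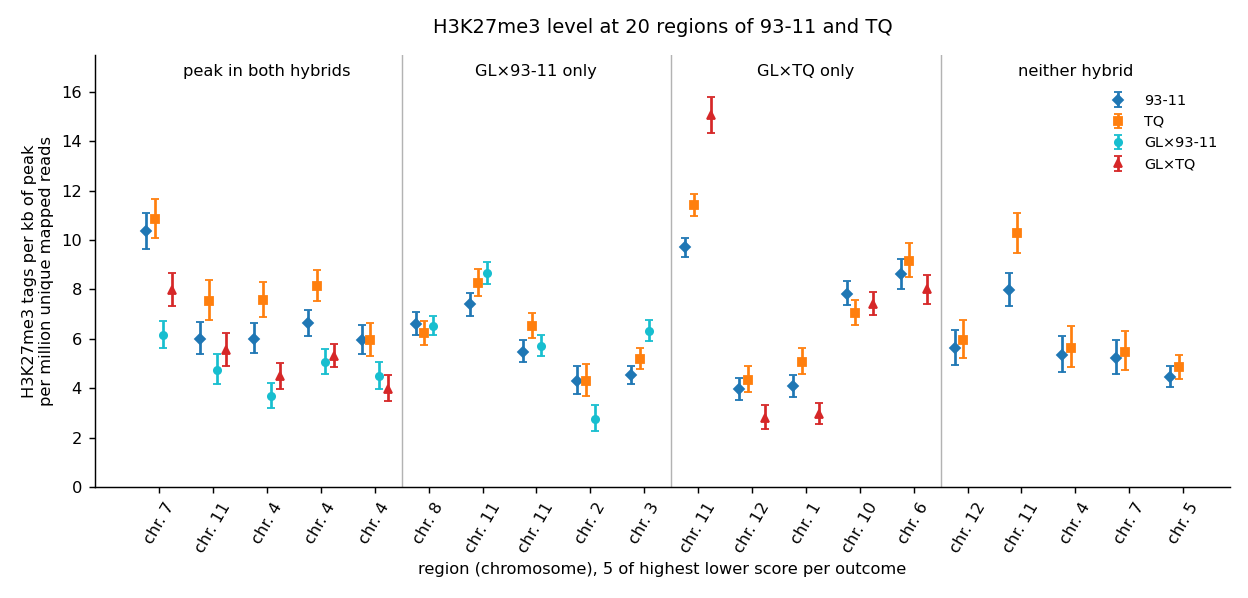
H3K27me3 level, in tags per kb of peak per 1000000 unique mapped reads, at the 5 regions of each outcome with the highest lower score of 93-11 and TQ. Points are single libraries and bars 95% Poisson intervals of the tags, and a genotype without a peak has no point. GL has no peak at any of them, and at the 5 regions with peaks in both hybrids each hybrid lies below its 93-11 or TQ parent.

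Some of the strongest regions called in 1 hybrid alone had a wide and weak hybrid peak. On chromosome 8 from 18984063 to 18988124, the score was 376 in 93-11, 338 in TQ and 56.75 in GL×93-11, and the nearest peak of GL×TQ was 1907 bp away. The level of GL×93-11, 6.52, was close to 6.62 in 93-11 and 6.23 in TQ, although fold enrichment was 2.23 against 3.06 and 3.36. The level alone would not have shown this difference. With the tags of the peaks over the length of the merged region, the ratio of GL×93-11 to 93-11 was 1.48 in place of 0.985. Neither length thus gave the lower value seen in fold enrichment. On chromosome 11 from 13653296 to 13657426, GL×93-11 had a level of 8.65, above 7.39 in 93-11 and 8.28 in TQ, with a score of 64.19 against 332 and 334. A narrower case was chromosome 2 from 24410176 to 24411474, where GL×93-11 had 116 tags (95.9 to 139) and a level of 2.76, against 4.29 in 93-11 and 4.29 in TQ. On chromosome 3 from 13826431 to 13829517, the GL×93-11 score of 350 was above 228 in 93-11 and 256 in TQ. The level there was 6.32 in GL×93-11 against 4.53 and 5.18, although fold enrichment was 2.40 against 2.99 and 2.92.

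Among regions called in GL×TQ and not in GL×93-11, the strongest was chromosome 11 from 27835244 to 27842312, 25035 bp from a GL peak. The level was 9.70 in 93-11, 11.4 in TQ and 15.1 in GL×TQ, while fold enrichment was 2.86, 2.78 and 1.99. Level per kb of peak and fold enrichment thus ranked the libraries in opposite order there. GL×TQ held 1643 tags, against 2571 in TQ. With these tags over the length of the merged region, the ratio of GL×TQ to TQ was 0.546 in place of 1.32. The direction of the difference in level thus depended on the length used. On chromosome 12 from 8013523 to 8015307, the level was 3.96 in 93-11, 4.34 in TQ and 2.80 in GL×TQ, a ratio of 0.644 (0.522 to 0.792) to TQ. On chromosome 6 from 17617109 to 17619233, it was 8.62 in 93-11, 9.16 in TQ and 8.0 in GL×TQ, and the score of 229 in GL×TQ was close to 239.6 in TQ, while GL×93-11 had its nearest peak 1977 bp away.

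The strongest region without a peak in either hybrid lay on chromosome 12 from 19299086 to 19300210. It held 251 tags in 93-11 (221 to 284) with a fold enrichment of 9.01 and a score of 634, and 244 tags in TQ (214 to 277) with 8.73 and 551. The nearest peaks were 25291 bp away in GL, 3565 bp in GL×93-11 and 3507 bp in GL×TQ. Its fold enrichment in 93-11 was the highest of all 995 regions, so lack of the call in the hybrids was not limited to weak parental peaks. On chromosome 11 from 26112123 to 26113836, 93-11 had a level of 7.97 and TQ of 10.3, and both hybrids had their nearest peak 13706 and 13817 bp away. The other 3 regions lay on chromosomes 4, 7 and 5, starting at 13924577, 1494541 and 7248303, with levels of 5.36, 5.22 and 4.45 in 93-11 and 5.65, 5.48 and 4.86 in TQ.

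Where the hybrid had a peak, its level was compared with that of its 93-11 or TQ parent. Over all 581 regions the median ratio of GL×93-11 to 93-11 was 0.999, and over 647 regions that of GL×TQ to TQ was 0.901. At regions of all 3 parents the medians were 1.07 and 0.904, so only the first cross was lower at the 995 regions than there. GL×93-11 lay below 93-11 at 293 of 581 regions (50.4%, background 34.0%) and GL×TQ below TQ at 526 of 647 (81.3%, background 84.4%). The background is the same share over all merged regions called in hybrid and parent, 6779 for GL×93-11 and 6960 for GL×TQ. With tags in peaks as the library total in place of unique mapped reads, the median log2 ratio of GL×TQ to TQ moved from -0.15 to -0.026, so the size of this difference depended on the library total used.

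The ratio was lower at regions with a stronger parental peak, both at the 995 regions and at regions of all 3 parents. In GL×93-11 the median log2 ratio was 0.096 with a 93-11 score under 100, -0.021 from 100 to under 200, and -0.15 at 200 or more, where the quartiles over 147 regions were -0.34 and -0.020. At regions of all 3 parents the medians were 0.21, 0.10 and 0.033 over the same classes, the last with quartiles of -0.084 and 0.16 over 1842 regions. In GL×TQ the medians were -0.10, -0.22 and -0.44 over the same classes of the TQ score, and the quartiles in the highest class were -0.61 and -0.19 over 113 regions. The medians at regions of all 3 parents were -0.083, -0.15 and -0.19, the last with quartiles of -0.28 and -0.096 over 1767 regions. A typical strong region thus had 0.899 of the 93-11 level in GL×93-11 and 0.738 of the TQ level in GL×TQ, against 1.02 and 0.879 where GL also had the mark. At regions marked in both parents of a cross but not in the third variety, the medians at 200 or more were 0.0099 in GL×93-11 and -0.21 in GL×TQ. At regions of 93-11 alone and of TQ alone they were -0.28 and -0.58.

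**Figure D3:**
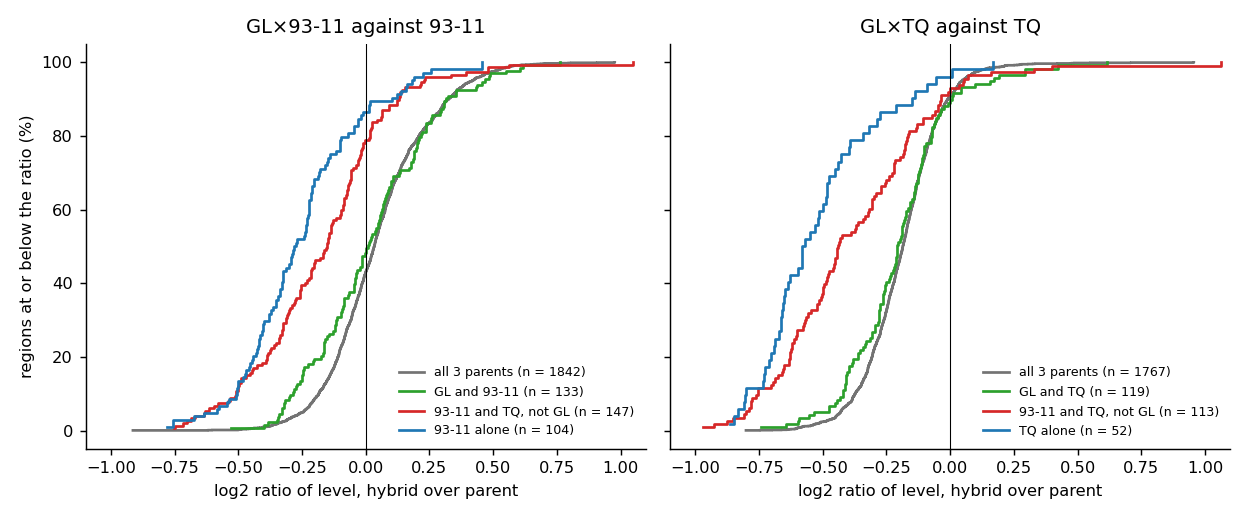
Cumulative share of regions, in percent, by the log2 ratio of the H3K27me3 level of hybrid over parent, for regions with a parental score of 200 or more and a peak in the hybrid. In both crosses the curve of the regions of 93-11 and TQ (red, medians -0.15 and -0.44) lies to the left of the curves of all 3 parents (grey, 0.033 and -0.19) over most of its range.

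Few regions with a peak in the hybrid changed by a large factor in level. A ratio exists only where the hybrid has a peak, so 414 regions in GL×93-11 and 348 in GL×TQ are not counted. The lowest hybrid level at the 995 regions was 2.53 in GL×93-11 and 2.56 in GL×TQ. Median parental levels were 3.74 in 93-11 and 4.03 in TQ, and a 2-fold fall from these would lie below the lowest called level. With a limit of 2-fold, 0 of 581 regions were lower in GL×93-11 and 0 of 647 in GL×TQ, with backgrounds of 0.0148% and 0%, and 1 region was higher in each (backgrounds 0.133% and 0.0431%). With a limit of 1.5-fold, which was chosen after the values were seen, 13 regions were lower in GL×93-11 (2.24%, background 0.384%) and 43 in GL×TQ (6.65%, background 1.58%). Of these, 10 and 31 had a parental score of 200 or more, which is 6.80% of 147 and 27.4% of 113 regions. At regions of all 3 parents in this class the shares were 0.163% and 0.905%. At regions of 93-11 alone and of TQ alone they were 4.81% of 104 and 44.2% of 52, so such falls were not particular to the 995 regions.

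Fold enrichment gave other counts and turned the order of the crosses. By fold enrichment, 2 of 581 regions were 2-fold or more lower in GL×93-11 (background 0.059%) and 1 of 647 in GL×TQ (background 0.0144%). With the limit of 1.5-fold, 31 regions were lower in GL×93-11 (5.34%, background 1.74%) and 14 in GL×TQ (2.16%, background 0.603%). Of these, 21 (14.3%) and 9 (7.96%) had a parental score of 200 or more, against 1.57% and 0.396% at regions of all 3 parents. The shares at regions of 93-11 alone and of TQ alone in this class were 19.2% and 9.62%. More regions of GL×TQ than of GL×93-11 were thus lower by level, and fewer by fold enrichment. At regions of all 3 parents the median ratio of level was already 1.07 in GL×93-11 and 0.904 in GL×TQ. The counts by level rest on unique mapped reads and were not repeated with tags in peaks as the library total.

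The parental score chose the classes, and the parent is also the denominator of the ratio. Ratios also cover only regions called in the hybrid. With a 93-11 score under 100, these were 42.7% in GL×93-11, against 85.9% at regions of all 3 parents. With a TQ score under 100, they were 60.2% in GL×TQ, against 89.1%. The part of these limits in the fall of the ratio with score was not tested. The regions of all 3 parents were classed in the same way. Medians of fold enrichment gave smaller differences in the same direction. In the class of 200 or more, the median ratio of fold enrichment was 0.877 in GL×93-11 and 0.917 in GL×TQ, against 0.928 and 0.969 at regions of all 3 parents. In another setting, the tags of the peaks were divided by the length of the merged region. The median log2 ratio less that at regions of all 3 parents was then further from 0. It was -0.34 in place of -0.19 for GL×93-11 and -0.37 in place of -0.25 for GL×TQ. Tags outside the peaks of a library were not counted, so this setting gives a lower level where the peaks cover less of the region. The region higher by more than 2-fold was the same in both hybrids, chromosome 12 from 19291587 to 19295578, with levels of 4.25 in 93-11 and 4.65 in TQ, against 8.79 in GL×93-11 and 9.70 in GL×TQ. Fold enrichment went the other way there, from 8.28 and 7.39 in the parents to 2.45 and 2.35 in the hybrids, whose peaks were wider than the narrow parental ones.

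The highest level in both parents also stood at a region of low fold enrichment. On chromosome 12 from 25119326 to 25122639, the level was 16.6 in 93-11 and 19.2 in TQ, against 15.9 in GL×93-11 and 16.5 in GL×TQ. Fold enrichment was 1.86 in 93-11, the lowest among the 995 regions, and 1.83 in TQ. Tags per kb and enrichment over the local background therefore rank these regions differently.

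At the 474 regions called in both parents and both hybrids, the contrast of 93-11 with TQ could be set beside that of GL×93-11 with GL×TQ, which come from separate libraries. Over these regions the log2 ratios had a Pearson r of 0.57 and a Spearman rho of 0.39, as a description over regions that all stem from the same 4 libraries. Over 4928 regions of all 3 parents, r was 0.24 and rho 0.12. At the 6 regions where the level of 93-11 was 1.5-fold or more above TQ, the median log2 ratio was 0.97 in the parents and 0.70 in the hybrids, and all 6 lay above the median of the hybrids. At the 20 regions where TQ was 1.5-fold or more above 93-11, it was -0.72 in the parents and -0.24 in the hybrids, and 18 lay below that median. Among regions of all 3 parents, 32 of the 34 with more mark in 93-11 lay above the median of the hybrids and 190 of the 319 with more in TQ lay below it. The shares were thus close for regions higher in 93-11, and differed for those higher in TQ. The limit of 1.5-fold between the parents was taken from equal levels, and the hybrids were set against their own median. The median log2 ratio of 93-11 to TQ was -0.11 at the 474 regions and -0.19 at those of all 3 parents. The part of this offset in the counts was not tested.

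**Figure D4:**
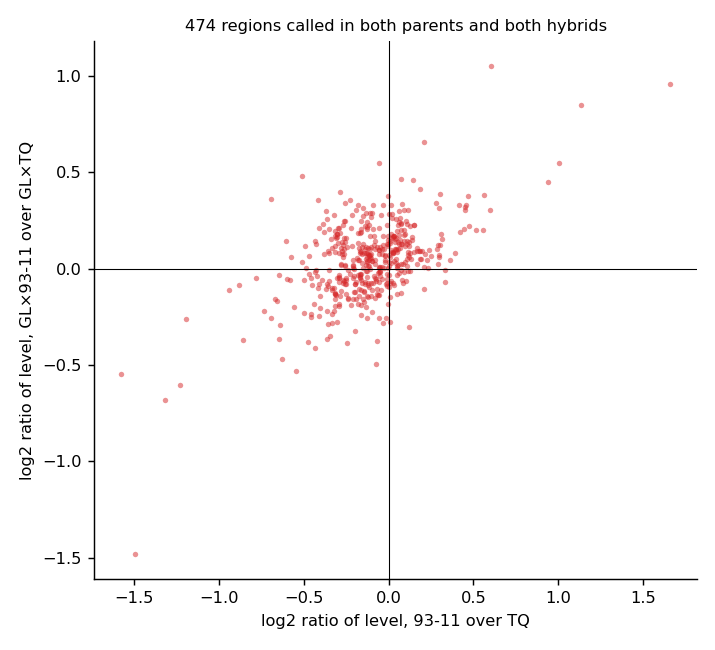
Log2 ratio of the H3K27me3 level of GL×93-11 over GL×TQ (vertical) against that of 93-11 over TQ (horizontal) at the 474 regions with a peak in these 4 libraries. Each point is a region, and points far to the left or right of the centre mostly lie on the same side vertically (r = 0.57, rho = 0.39).

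The 3 largest contrasts in each direction were named after their values were seen. On chromosome 8 from 7700926 to 7704368, the level was 9.56 in 93-11 and 3.03 in TQ, against 6.78 in GL×93-11 and 3.49 in GL×TQ. On chromosome 1 from 20917300 to 20919157, it was 7.07 in 93-11 and 3.22 in TQ, against 5.20 in GL×93-11 and 2.89 in GL×TQ. On chromosome 12 from 22850691 to 22854200, it was 7.63 in 93-11 and 3.81 in TQ, against 6.15 in GL×93-11 and 4.21 in GL×TQ. These 3 regions were higher in 93-11 and in its hybrid, with log2 ratios of 1.66, 1.13 and 1.00 between the parents and 0.96, 0.85 and 0.55 between the hybrids.

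In the other direction, the level on chromosome 11 from 19197854 to 19202534 was 2.72 in 93-11 and 8.10 in TQ, against 5.01 in GL×93-11 and 7.33 in GL×TQ. On chromosome 12 from 17288382 to 17290068, it was 4.56 in 93-11 and 12.9 in TQ, against 3.25 in GL×93-11 and 9.09 in GL×TQ. On chromosome 12 from 18266265 to 18270545, it was 3.55 in 93-11 and 8.88 in TQ, against 5.25 in GL×93-11 and 8.43 in GL×TQ. The log2 ratios were -1.58, -1.50 and -1.32 between the parents and -0.55, -1.48 and -0.68 between the hybrids. The hybrid contrast was smaller than the parental one at all 6 regions, and close to it at 1 of them. These regions were taken as the largest parental contrasts, a choice that by itself favours a smaller contrast in the hybrids. Its part in this was not tested. Fold enrichment at the region of chromosome 11 was 2.93 in 93-11 and 3.13 in TQ, against 3.58 in GL×93-11 and 2.90 in GL×TQ, so it did not show the contrast of the levels. GL had no peak at any of these 6 regions.

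H3K36me3, which the choice of the regions did not use, was seldom found at them. A peak of H3K36me3 touched 70 of the 995 regions in GL (7.04%, 5.61% to 8.79%), 68 in 93-11 (6.83%) and 66 in TQ (6.63%), against 62 in GL×93-11 (6.23%) and 56 in GL×TQ (5.63%, 4.36% to 7.24%). Over all 13647 merged regions the shares were 8.49%, 6.33%, 7.07%, 7.89% and 6.93% in the same order. The 995 regions were thus near the background in every genotype, and GL, which lacked H3K27me3 there, did not have H3K36me3 more often than over all regions.

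None of the 3 parents had H3K36me3 at 889 regions (89.3%), and all 3 had it at 39. GL alone had it at 26 regions (2.61%, 1.79% to 3.80%), against a background of 2.56%, so H3K27me3 in 93-11 and TQ beside H3K36me3 in GL alone had a share close to that over all regions. Both 93-11 and TQ, but not GL, had it at 15 regions (1.51%, 0.916% to 2.47%), against a background of 0.755%, which places both marks of these 2 varieties at the same region.

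The strongest region with H3K36me3 in GL alone among the parents was the one on chromosome 4 from 7907005 to 7909302 described above, where a GL peak covered 1855 bp and neither hybrid had H3K36me3. On chromosome 4 from 13516525 to 13518108, H3K36me3 covered 1465 bp in GL and 1148 bp in GL×93-11, and 0 bp in 93-11, TQ and GL×TQ. The H3K27me3 level at that region was 4.51 in 93-11 and 4.96 in TQ, against 3.77 in GL×93-11 and 3.64 in GL×TQ, so GL×93-11 had peaks of both marks there. On chromosome 10 from 12224251 to 12227020, H3K36me3 covered 984 bp in GL alone, and the H3K27me3 levels were 6.23, 6.74, 4.37 and 4.16. The ratio to the parent in GL×93-11 was 0.702 (0.625 to 0.788), and that in GL×TQ was 0.617 (0.545 to 0.698). The other 2 regions named by the same rule lay on chromosome 11 from 2558692 to 2560922 and on chromosome 1 from 26384247 to 26387626, where the GL peak covered only 118 and 168 bp. All 5 had an H3K27me3 peak in both hybrids, but they were named for their high parental scores. Of all 102 regions with a score of 200 or more in both parents, 70.6% had a peak in both hybrids. With or without H3K36me3 in other parents, GL had it at 7.81% of regions called in both hybrids and 7.47% of those in neither. The shares were 6.54% for GL×93-11 alone and 4.62% for GL×TQ alone.

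The 995 regions were spread over all 12 chromosomes. Chromosome 11 had the highest share, 135 of its 1195 merged regions (11.3%, 9.62% to 13.2%), and its interval lay above the 7.29% of all chromosomes. The other chromosomes ranged from 5.64% on chromosome 9 to 8.75% on chromosome 4 (7.29% to 10.5%). On chromosome 11 a peak was called in GL×93-11 at 70 of the 135 regions (51.9%) and in GL×TQ at 75 (55.6%), both below the shares over all 995. Chromosomes 3, 6, 9 and 10 were also below in both hybrids, and chromosome 10 was lowest in GL×93-11 (46.7% of 60 regions). No interval was taken for these shares, so differences between chromosomes in them were not assessed. On chromosome 4 the shares were 69.2% and 68.2% of 107 regions.

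**Figure D5:**
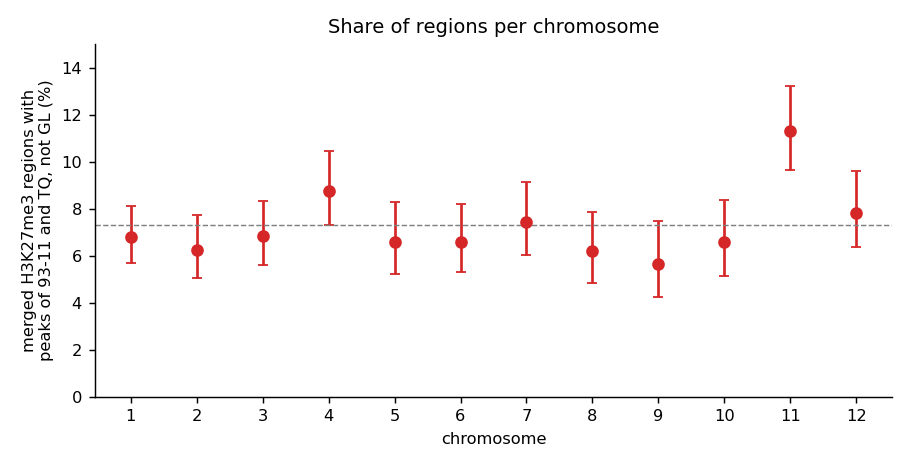
Share of the merged H3K27me3 regions of each chromosome, in percent, that had peaks of 93-11 and TQ and none of GL, with 95% Wilson intervals of counting error. The dashed line is the share over all chromosomes (7.29%), and the point of chromosome 11 stands at 11.3%.

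In windows of 500 kb the regions reached 9 in 2 windows, while 243 windows with merged regions held none. One window lay on chromosome 11 from 25000001 to 25500000, where 5 of the 9 regions had a peak in GL×93-11 and the same 5 in GL×TQ. A pair of its regions without a hybrid peak stood next to each other, from 25000538 to 25002283 and from 25003714 to 25005599, with levels of 3.18 and 3.48 in 93-11 and 4.90 and 4.27 in TQ. Nearby, from 25053873 to 25055522, the level was 5.75 in 93-11 and 5.33 in TQ, against 3.71 in GL×93-11 and 3.59 in GL×TQ. Called and uncalled regions were thus mixed within the window.

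The other window lay on chromosome 12 from 19000001 to 19500000, with a peak in both hybrids at 4 of 9 regions and in neither at the remaining 5. It held the strongest region without a hybrid peak and the region with wide hybrid peaks described above. From 19345613 to 19347573 the level was 4.19 in 93-11 and 5.40 in TQ, against 4.23 in GL×93-11 and 4.47 in GL×TQ. Along the merged regions, 765 of the 995 had no neighbour of the same kind, and the longest runs were 3 runs of 4 regions, on chromosomes 2, 11 and 12. The run on chromosome 2 spanned 25596 bp from 24403879, with a peak in GL×93-11 at 3 of its regions and in GL×TQ at 2.

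Near the limits of the choice, the region closest to a GL peak was chromosome 4 from 32995843 to 32999478, 3 bp from one. Its levels were 5.18 in 93-11 and 4.93 in TQ, against 5.02 in GL×93-11 and 5.04 in GL×TQ. The region with the lowest score in its weaker parent, 50.05 in TQ, was chromosome 12 from 6213226 to 6215048, which had no hybrid peak. Just outside the choice lay chromosome 11 from 16850948 to 16854761, where a GL peak with a score of 50.04 met the 93-11 and TQ peaks, and chromosome 5 from 5650727 to 5657334, where a GL peak covered 18.7% of the region. At the region of chromosome 4 the lack of a GL peak thus rested on 3 bp. That of chromosome 11 was left out for a GL peak with a score at the calling limit. The GL peak of chromosome 5 had a score of 65.76.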

How the data were processed

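Chromatin immunoprecipitation and sequencing of H3K27me3 and H3K36me3 was done by the authors in 5 genotypes, 1 library per genotype and mark, 10 in all. The authors mapped reads with SOAP2 to Nipponbare from Gramene (version not given in the sources used here), allowing 2 mismatches, and called peaks with MACS in each library. No input control is named for peak calling. The deposited lists give a tag count per peak, a fold enrichment ratio and a score whose heading is damaged and which was read as 10 times the negative log10 of the p-value.

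Lists were merged at 1 bp or more of overlap. Tags were divided by peak length and by the library's unique mapped reads (36356272 to 43755981 for H3K27me3). Overlap with H3K36me3 needed 1 bp. Shares have 95% Wilson intervals, tags Poisson intervals, and ratios exact intervals from the binomial of both tag counts. All cover counting error only. With 1 library per genotype no p-value was computed. Named are the 5 regions of each hybrid outcome, and of H3K36me3 in GL alone, with the highest lower score (the smaller of the highest 93-11 and TQ scores), the regions of the densest 500 kb windows and those at the limits of the choice. Others were chosen after their values were seen. The regions and lists were chosen with earlier results of these data known. Other score limits, list lengths, merging distances, overlaps, library totals and region lengths were tried. Merging was tested on simulated data. Python 3.11.15, pandas 2.3.3, numpy 2.4.6, scipy 1.17.1 and matplotlib 3.10.9 were used.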

Additional observations from a re-analysis of the deposited data

How the results depend on the processing

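Among repeats of the main results under other settings, 79 stayed within the interval of the main value, or within 1.5 times of it for the number of regions, and 31 moved. The number of regions fell to 611 with all lists limited to scores of 100 or more and to 327 with that score required in 93-11 and TQ. The latter setting raised the share with a peak to 71.6% in GL×93-11 and 74.0% in GL×TQ, and lists of equal length raised it to 65.5% and 69.8%. With lists limited to 100 or more, the share in GL×93-11 where 93-11 scored at least 200 was 73.1%. The median log2 ratio of GL×93-11 to 93-11 (-0.0013) became -0.087 with 100 or more in both parents, -0.037 with lists limited to 100 or more, -0.058 over region length, -0.15 at 200 or more and -0.14 with fold enrichment. That of GL×TQ (-0.15) became -0.27 with 100 or more in both parents, -0.13 with equal lists, -0.026 per tags in peaks, -0.12 over region length, -0.44 at 200 or more and -0.047 with fold enrichment. The median at 200 or more, less that of all 3 parents (-0.19 in GL×93-11, -0.25 in GL×TQ), became -0.34 and -0.37 over region length, -0.082 and -0.080 with fold enrichment, and -0.15 and -0.13 with lists limited to 100 or more, and stayed below 0 in all settings run. H3K36me3 shares fell to 4.42% for GL, 3.52% for 93-11, 4.52% for TQ, 4.42% for GL×93-11 and 3.72% for GL×TQ with H3K36me3 scores of 100 or more, and to 5.03% in GL and 4.82% in GL×93-11 at 20% cover. The cause of these moves was not tested. Fold enrichment and the difference from regions of all 3 parents were added after seeing the data. No paired analysis was possible because each genotype has 1 library per mark.

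No interval holds biological error, and a single library can set any difference between genotypes. TQ was sequenced least for H3K27me3, and its lowest level at the 995 regions was 2.60 against 2.21 in 93-11. Whether its depth set this was not tested.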
